A study of Mus musculus with 25 samples.

Results

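Whole testes of Cul4a-/- mice were compared with whole testes of wild-type (WT) mice, with the summed RNA of each library taken as 1 measurement. The comparison held 10 of the 25 libraries of the series: Cul4a_1 and Cul4a_2 against WT4 to WT11. They were chosen because all 10 testes were dissociated mechanically and sequenced on a HiSeq, so neither step separates the strains. Together they held 29668 of the 48642 barcodes. Libraries came from Drop-seq, in which a cell and a barcoded bead share a droplet and a unique molecular identifier (UMI) on each captured transcript lets copies of it be counted as 1, read near the 3′ end.

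The Cul4a-/- mice belonged to a line on a mixed B6;129 background and the WT mice were C57BL/6. No transgene or drug treatment was given for either group. The labels put the Cul4a mice at 1 month 18 days and 1 month 21 days, and the WT mice between 3 months 1 day and 9 months 14 days. The sample list of the study gives the ages of the Cul4a and CNP mice the other way round (2 months 14 days and 2 months 16 days for Cul4a). Strain background, age and depth therefore move with the genotype, and their part in any difference cannot be told apart from it. The labels give no preparation batch. The study's methods state that more than 1 bead lot was used and refer to its sample list for them. The lots were not compared here, so the part of bead lot or another preparation batch was not tested.

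CUL4A is a cullin, the scaffold of a ubiquitin ligase (CRL4) that binds the RING protein RBX1 at one end and, through DDB1, a changeable substrate receptor (a DCAF protein) at the other. CRL4 marks proteins of replication, the cell cycle, DNA repair and chromatin for destruction, and the closely related CUL4B, encoded on the X chromosome, can take its place in many cells. In the testis, germ cells pass from spermatogonia through meiosis as spermatocytes to round and then elongating spermatids, and male mice that lack CUL4A are known to be infertile.

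Depth differed by group. The Cul4a libraries held 9691555 and 9745302 UMIs, and the WT libraries between 2210512 and 3829176. The counts summed over every barcode were therefore thinned without replacement to 2210512 UMIs per library, and levels below are CPM, the count divided by the library's thinned total and scaled to 1e+06, unless another source is named. WT4 and WT5 stood apart among the WT libraries: across genes, their log2(CPM + 1) had a Pearson r of 0.963 to 0.975 with WT6 to WT11, against 0.975 to 0.980 among those 6. The r of the Cul4a pair was 0.976 and that of a Cul4a with a WT library 0.943 to 0.958. No doublet caller was run and every barcode was kept, since only sums were compared. No 2 of the 10 libraries shared more than 27 barcodes.

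Genes were tested with edgeR's quasi-likelihood test and Benjamini-Hochberg adjustment (threshold 0.05) over the 13739 genes with at least 30 thinned counts over the 10 libraries. The test called 2796 genes, 20.4% of those tested, with 1365 (9.94%) higher and 1431 (10.4%) lower in Cul4a. Of the called genes, 203 (1.48% of all tested) differed by a log2 fold change of 2 or more, 161 upwards and 42 downwards. With libraries scaled by their totals alone, without TMM factors, 1672 were higher and 1049 lower. The count rests on both Cul4a libraries: it was 728 without Cul4a_1 and 1324 without Cul4a_2, where the spread came from the WT libraries alone and the lone Cul4a library was taken to vary as they do. Leaving out WT4 and WT5 together, an alternative added after the data had been seen, gave 3537, of which 2714 were among the 2796. Of the 3537, 1792 were higher and 1745 lower. With the log2 ratio of the late spermiogenesis to the pachytene list sum as a covariate 1344 were called, 569 higher and 775 lower. List counts under these alternatives are to be read against these totals. Fold changes below are Cul4a over WT on the log2 scale, and the ± is the fold change divided by the square root of its F statistic. It is not a fitted standard error and can be too narrow where a group has almost no counts. An adjusted p is always that of edgeR over all genes tested. Nothing in the labels separates the mice of a group into litters or days, so p-values measure the spread between these libraries.

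The Cul4a gene itself (chr8:13105621-13147940, GRCm38, forward strand) was measured at 51.6 and 46.1 CPM in the Cul4a libraries and at 25.3, 39.4 and 45.7 CPM (lowest, median, highest) in WT. Both Cul4a libraries lay above all WT libraries, with a difference of 0.33 ± 0.18 (adjusted p = 0.218). The sources used here do not give the deleted part of the gene, and UMIs from the 3′ end of a transcript that is still made would be counted, so this level does not check the genotype. Cul4b stood at 40.3 and 48.0 CPM in Cul4a and at 39.8, 48.9 and 63.3 CPM in WT, with overlapping groups and a difference of -0.23 ± 0.16 (adjusted p = 0.35).

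Of 26 genes of the CUL4 scaffold and adaptor list, 3 were higher and 4 lower (26.9% called, against 20.4% over all genes), with a median difference of 0.08 against 0.01 over all genes, and their summed level was 1648 CPM in both Cul4a libraries within the WT range of 1623 to 1794. The receptor gene Dcaf6 fell, from 255, 278 and 334 CPM in WT to 183 and 209 (-0.62 ± 0.13, adjusted p = 0.00195). Crbn, the receptor that thalidomide binds, fell by 0.50 on the log2 scale (adjusted p = 0.00814), and Dcaf8 by 0.48 (adjusted p = 0.00937). Dda1, a small subunit bound to DDB1, rose from 135, 145 and 165 to 193 and 226 CPM (0.44 ± 0.12, adjusted p = 0.015). In these 4 genes, both Cul4a libraries lay beyond all WT libraries. With the log2 ratio of late spermiogenesis to pachytene RNA as a covariate 0 members were higher and 4 lower, so the 3 raised calls, Dda1 among them, were lost.

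Among 19 genes of neddylation and the COP9 signalosome, which switch cullins on and off, 1 rose and 2 fell (15.8%, against 20.4% over all genes), or 2 and 1 with totals-only scaling and 0 and 0 with the same covariate. Nedd8, the modifier joined to cullins, rose from 114, 138 and 153 to 204 and 177 CPM (0.40 ± 0.13, adjusted p = 0.0328), and Cand1, which exchanges substrate receptors, fell by 0.56 (adjusted p = 0.0103). Of 11 tested genes of the other cullins and their partners, 3 fell and 0 rose (27.3%, against 20.4% over all genes). The counts were 5 lower and 2 higher without WT4 and WT5, 1 and 1 with that covariate, and 3 and 1 with totals-only scaling. Cul1 went from 128, 141 and 157 to 103 and 98.2 CPM (-0.57 ± 0.12, adjusted p = 0.0032) and Cul3 fell by 0.49 (adjusted p = 0.0111). Of 6 tested genes for known CRL4 substrates none passed (0 of 6, edgeR). Their summed level was 51.1 and 57 CPM against 39.8 to 52.9 in WT, which overlapped. The ligase acts on the proteins, which were not measured.

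The genes with the smallest p, both Cul4a libraries beyond all WT libraries and a mean of at least 20 CPM in the higher group are the leading genes here, 12 in each direction. Among all 13739 genes, both Cul4a libraries lay above all WT libraries in 17.3% and below them in 11.7%, so the separation alone is common. Rps13-ps1, a processed pseudogene of a ribosomal protein gene, stood at 253 and 239 CPM in Cul4a and at a median of 0 and at most 0.452 in WT. In the counts as deposited these were 2592 and 2300 UMIs against 2 in all WT libraries, a ratio of 2958 (exact 95% interval 818 to 24432, counting error only). The functional Rps13 was at 209 and 208 CPM in Cul4a and at 201, 289 and 336 in WT, a fall of 0.52 (adjusted p = 0.0287). Reads of near-identical copies can be split between them by the alignment, so the values of pseudogenes and parents are uncertain.

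Hist1h2al, an H2A-type histone gene that the annotation types as a processed pseudogene, rose from 0, 0.905 and 1.81 CPM in WT to 85.0 and 68.8 (6.17 ± 0.28, adjusted p = 1.81e-11). Csmd1, which encodes a large membrane protein of CUB and sushi domains, rose from 0.452, 0.679 and 0.905 to 25.8 and 25.3 CPM (5.05 ± 0.28, adjusted p = 4.33e-10). Tagln2, the actin-binding transgelin-2, rose from 0, 1.58 and 3.62 to 36.2 and 42.5 CPM (4.56 ± 0.31, adjusted p = 1.14e-08). Over the alternatives the fold changes ran from 5.46 to 6.56 for Hist1h2al, from 4.23 to 5.16 for Csmd1 and from 3.51 to 5.07 for Tagln2. For these 3 genes the lower Cul4a library was at least an order of magnitude above the WT median. They belong to the 6 genes that the study picked for Cul4a from these same libraries, so their direction here is not independent evidence. The 6 come from a set of covarying genes that the study describes as overexpressed in Cul4a. Its methods also count that set as technical, since its leading genes were all or mostly ribosomal genes or pseudogenes.

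The others of those 6 were Jakmip2, Map2k7 and Lpo. Jakmip2 rose from 11.3, 25.8 and 34.8 to 100.4 and 93.6 CPM (1.95 ± 0.24, adjusted p = 2.46e-05). Map2k7, the kinase MKK7 that activates JNK, fell from 71.9, 98.6 and 119 to 39.4 and 41.2 CPM (-1.34 ± 0.18, adjusted p = 6.6e-05). Its direction is opposite to the study's description of the set. Lpo, the secreted enzyme lactoperoxidase, was at 0 UMIs in all 8 WT libraries as deposited and at 120 and 130 UMIs in the Cul4a libraries, at least 101-fold higher against a floor of 3 UMIs over the WT group. Lpo was called in 22 of the 23 alternative fits that could test it, with adjusted p up to 0.207. Ttr, the thyroid hormone carrier transthyretin, was singled out after its values were seen: it also had 0 UMIs in WT and 143 and 95 in Cul4a, at least 95.9-fold higher.

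Pfn1, the actin monomer-binding profilin-1, rose from 15.8, 21.5 and 29.0 to 136 and 139 CPM (2.58 ± 0.16, adjusted p = 2.12e-09). Bloc1s6, a subunit of the BLOC-1 complex of endosomal trafficking, rose from 9.05, 11.3 and 16.3 to 52.5 and 52.0 CPM (2.08 ± 0.17). Wdr89, a WD-repeat gene, rose from 5.43, 9.27 and 11.3 to 44.3 and 43.0 CPM (2.28 ± 0.19). In each of them both Cul4a libraries lay above all WT libraries. Of the 12 leading raised genes 6 are annotated as pseudogenes, Rps13-ps1 and Hist1h2al among them, and Gm16212, an antisense gene whose strand the counting may not separate, rose by 4.22 ± 0.32 (3.52 to 4.94 over the alternatives, against 1.69 to 2.54 for Wdr89 and 8.94 to 12.05 for Rps13-ps1). Leaving all pseudogenes of the annotation out of the fit, also an added alternative, gave 2509 calls, of which 2474 were among the 2796.

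The greatest fall was in Grtp1 (chr8:13172022-13200620, reverse strand), which encodes a TBC-domain protein regulated by growth hormone. It was at 140, 170 and 197 CPM in WT and at 0 and 0.452 in Cul4a (-9.27 ± 0.37, adjusted p = 1.83e-12), or 7 and 9 UMIs as deposited against 356 to 655 in the shallower WT libraries. With 1 thinned UMI in the Cul4a pair the fitted fold is loose, and it ran from -11.54 to -6.73 over the alternatives. Dapp1, a phosphoinositide-binding adaptor of lymphocyte signalling, fell from 30.3, 45.5 and 49.8 to 2.26 and 0 CPM (-5.28 ± 0.41, adjusted p = 1.01e-07), with -9.60 to -4.32 over the alternatives. Wwtr1, the Hippo pathway coactivator TAZ, fell from 17.6, 24.2 and 29.0 to 3.62 and 4.98 CPM (-2.51 ± 0.29, adjusted p = 1.23e-05). None of the 12 leading lowered genes is annotated as a pseudogene.

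The others of the 12 fell by 0.99 to 1.89 on the log2 scale. Wdr16, a gene of the ciliary and flagellar axoneme, fell from 98.2, 111 and 131 to 31.2 and 31.7 CPM (-1.89 ± 0.15). Fsip2, a protein of the fibrous sheath of the sperm tail, fell from 519, 572 and 656 to 264 and 287 CPM (-1.13 ± 0.12, adjusted p = 3.5e-06). Ammecr1l, 1700019B03Rik, the polycystin-family channel gene Pkd2l2, 4930579F01Rik, the hyaluronidase gene Hyal6, Fam217a and the transmembrane channel-like gene Tmc5 were the remaining genes. All 24 leading genes were called in every alternative fit that held them.

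**Figure D1:**
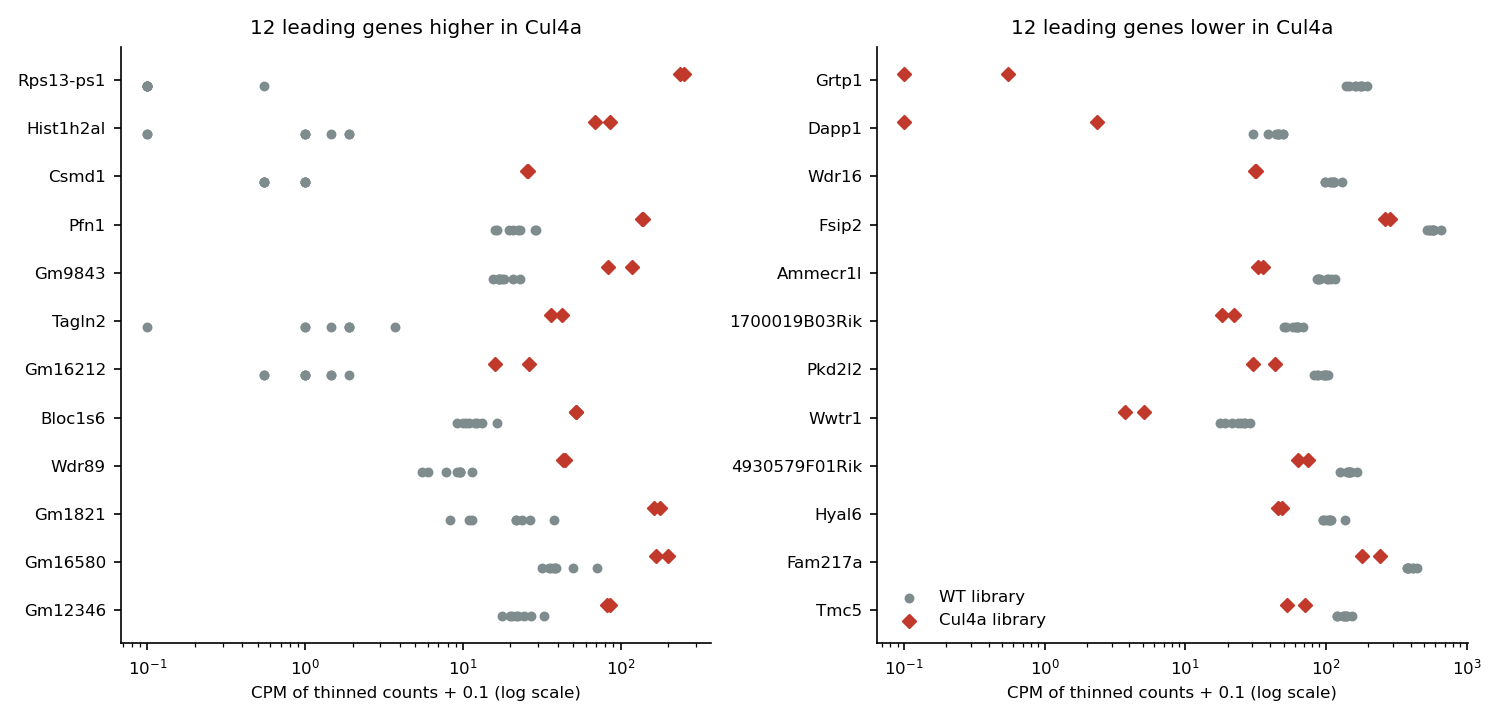
Level of the 24 leading genes in each of the 10 libraries, as CPM of the thinned counts with 0.1 added, on a log axis. Grey points are the 8 WT and red diamonds the 2 Cul4a libraries; the groups are separate in every row, and Rps13-ps1 in WT and Grtp1 in Cul4a lie at or near 0.

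Start-site regions from RefSeq (GRCm38.p6) are shown for the gene that fell most and for 3 raised genes. Each runs 5′ to 3′ on the gene's strand from 250 bases before the start to 50 from the start on, with GC boxes (GGGCGG on either strand) in capitals. They lie at chr8:13200575-13200874 (Grtp1, reverse), chr1:172499996-172500295 (Tagln2, forward), chr11:70654601-70654900 (Pfn1, reverse) and chr11:87826065-87826364 (Lpo, reverse).
Grtp1: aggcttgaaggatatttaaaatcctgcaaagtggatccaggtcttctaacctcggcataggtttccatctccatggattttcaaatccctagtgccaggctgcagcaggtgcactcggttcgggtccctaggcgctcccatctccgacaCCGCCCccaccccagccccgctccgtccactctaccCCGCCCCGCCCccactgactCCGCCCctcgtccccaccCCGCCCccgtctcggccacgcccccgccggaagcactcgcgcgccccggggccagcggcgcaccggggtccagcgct
Tagln2: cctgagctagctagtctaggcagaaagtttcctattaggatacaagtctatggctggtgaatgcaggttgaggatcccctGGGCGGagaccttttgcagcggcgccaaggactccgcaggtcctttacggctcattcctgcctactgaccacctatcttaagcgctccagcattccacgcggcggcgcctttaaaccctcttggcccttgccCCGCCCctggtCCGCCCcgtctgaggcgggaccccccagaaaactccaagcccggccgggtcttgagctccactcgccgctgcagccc
Pfn1: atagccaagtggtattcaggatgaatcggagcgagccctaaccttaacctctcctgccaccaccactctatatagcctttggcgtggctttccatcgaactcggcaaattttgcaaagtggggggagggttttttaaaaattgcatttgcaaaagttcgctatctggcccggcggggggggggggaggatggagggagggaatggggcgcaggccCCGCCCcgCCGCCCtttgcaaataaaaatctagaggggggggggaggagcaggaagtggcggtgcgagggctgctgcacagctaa
Lpo: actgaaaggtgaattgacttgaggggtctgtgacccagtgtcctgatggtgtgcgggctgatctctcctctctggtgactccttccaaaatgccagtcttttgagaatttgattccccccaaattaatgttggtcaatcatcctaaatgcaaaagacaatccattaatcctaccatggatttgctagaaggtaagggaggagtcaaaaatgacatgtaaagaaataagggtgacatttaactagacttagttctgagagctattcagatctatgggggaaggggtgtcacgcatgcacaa
The 4 windows held 5, 3, 2 and 0 GC boxes in this order, overlapping ones included, and none held the full cAMP response element TGACGTCA, the site of the spermatid factor CREM. Among the 10012 tested genes with such a window, a GC box was in 58.9%, in 56.1% of the raised and in 57.6% of the lowered genes. TGACGTCA was in 3.42% of all, 3% of the raised and 4.1% of the lowered, and TATAAA in 7.41%, 8.39% and 7.18%. These shares are a description, and the motifs were searched on both strands.

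Grtp1 is the nearest tested neighbour of Cul4a with a large change: its 3′ end lies 0.0241 Mb beyond the end of Cul4a. Within 5 Mb of Cul4a, 51 genes were tested and 10 called (19.6%), 4 higher and 6 lower, close to the 20.4% over all genes. Of these 51, 2 genes (3.92%, against 1.48% of all genes tested) passed a log2 fold change of 2, Grtp1 and Csmd1, the latter at 2.74 Mb. Between 5 and 20 Mb, 28 of 97 were called (28.9%), 12 higher and 16 lower, and 5 (5.15%) passed a log2 fold change of 2. On the rest of the chromosome 120 of 577 were called (20.8%) and 6 (1.04%) passed it. These are small counts and were not tested.

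The 5 genes between 5 and 20 Mb were named after their values were seen: Gm7461, Gm6410 and Slc10a2, the ileal bile acid transporter gene, were lower, and Gm10689 and Gm17215 higher. Gm6410 went from 4.98, 6.56 and 8.14 CPM in WT to 0.452 and 0 (adjusted p = 7.3e-05), and Gm7461 from 7.24, 10.9 and 16.3 to 1.36 in both Cul4a libraries. On the other side of Cul4a from Grtp1, Map2k7 lies at -8.86 Mb and 1700019B03Rik at -9.62 Mb, so both Csmd1 and Map2k7 of the study's 6 genes lie in these windows. The remaining called genes within 5 Mb changed less. Ing1, a chromatin reader of the inhibitor of growth family, fell from 101, 124 and 133 to 72.4 and 66.5 CPM (-0.85 ± 0.15), and 1700128E19Rik, a long noncoding RNA, rose from 3.62, 6.11 and 9.95 to 17.6 and 20.4 CPM (1.5 ± 0.27). Upf3a, of nonsense-mediated decay, fell by 0.54, Spaca7 by 0.52, Pcid2 by 0.57 and Arhgef10 by 0.97, and Tex29 rose by 0.42 and Gm16347 by 0.52. Pcid2 passed in 4 of 27 alternative fits and Arhgef10, Gm16347 and Tex29 in 20, 20 and 19.

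**Figure D2:**
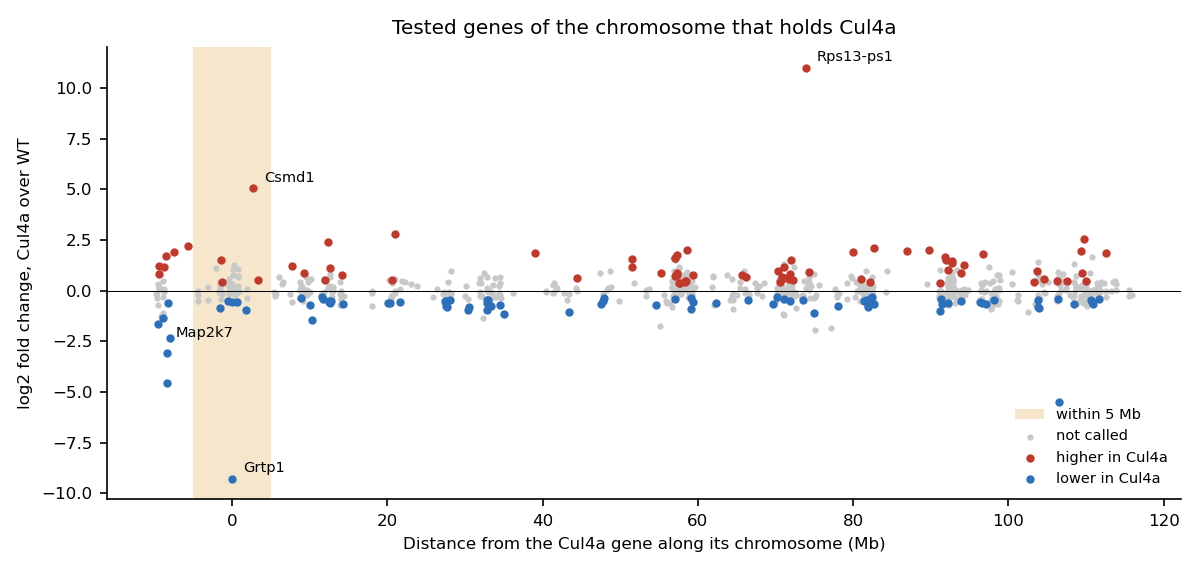
Log2 fold change of Cul4a over WT for each tested gene of the chromosome that holds Cul4a, against its distance from that gene in Mb. Red and blue points were called, grey ones were not, and the shaded band is the 5 Mb on each side; Grtp1 at -9.27 and Csmd1 at 5.05 lie in the band and Rps13-ps1 at 11.02 lies 73.9 Mb away.

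Germ cell lists moved in different directions. In bulk sums, fewer cells of a type and less RNA per cell cannot be told apart. Of 22 genes of round spermatids and the acrosome, the cap that helps sperm enter the egg, 11 fell and 0 rose (50% called, against 20.4% over all genes, and a median of -0.33 against 0.01). Their summed level was 6003 and 6882 CPM in Cul4a, below the 6966 to 8420 of WT. Zpbp2, which helps to shape the acrosome, fell from 604, 650 and 689 to 467 and 441 CPM (-0.60 ± 0.10, adjusted p = 0.000508), and Zp3r, a zona pellucida-binding protein, from 127, 160 and 200 to 78.7 and 113 CPM (-0.83 ± 0.17, adjusted p = 0.00182). Lrrc34 and Zpbp fell too, by 0.60 and 0.49. Without WT4 and WT5 the counts were 13 lower and 1 higher, and with the ratio of late to pachytene RNA as a covariate 7 lower.

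The late spermiogenesis list, whose sum is made up mainly of the DNA-packing proteins, was higher as a sum and mixed by gene. It stood at 57073 and 59417 CPM in Cul4a against 35700 to 51681 in WT, while 2 of 19 genes rose and 5 fell (36.8%, against 20.4% over all genes, median -0.08). The balance turned to 5 higher and 2 lower with totals-only scaling, and without WT4 and WT5 it was 6 and 5. With the covariate, which is built in part from this list's own sum, it was 0 and 3. Prm1, protamine 1, chosen after its values were seen, was at 12829 and 11834 CPM against 3553, 7706 and 8355 in WT (0.75 ± 0.23, adjusted p = 0.0261). Prm2, Tnp1 and Tnp2, the second protamine and the transition proteins, also lay above all WT libraries, with adjusted p of 0.186, 0.0534 and 0.0993. Akap3 and Akap4, the scaffolds of the fibrous sheath, fell by 0.72 and 0.51 (adjusted p = 0.00147 and 0.024), and H1fnt, the spermatid linker histone, by 0.46. The sum and the list's median thus had opposite signs.

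Among 23 tested genes of sperm motility and capacitation, 7 fell and 1 rose (34.8%, against 20.4% over all genes, median -0.25). With the covariate 3 fell and 0 rose. Slc9c1, the sperm sodium-proton exchanger, fell from 89.1, 98.4 and 127 to 48.0 and 46.1 CPM (-1.19 ± 0.16, adjusted p = 4.77e-05). Catsper2 and Catsperg1, of the calcium channel of the sperm tail, fell by 0.58 and 0.88 (adjusted p = 0.00433 and 0.00647), beside Fsip2 above. The summed level of the list, 10710 and 11057 CPM, overlapped that of WT, 10473 to 11024.

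The sums of the next 2 lists overlapped those of WT. The pachytene list summed to 25069 and 23233 CPM within or just above the WT range of 21890 to 24886, with 4 of 18 genes higher and 4 lower, or 44.4% against 20.4% over all genes. The counts were 5 and 1 with totals-only scaling, 1 and 1 with the covariate, and 6 and 6 without WT4 and WT5. The covariate is made from the sums of this list and the late spermiogenesis list. For members of these lists the covariate fit is therefore not a separate check. Piwil1, the pachytene piRNA protein MIWI, rose from 147, 168 and 211 to 274 and 233 CPM (0.45 ± 0.13, adjusted p = 0.0187), and Pld6, of piRNA biogenesis, by 0.61. Ddx4, the germ cell RNA helicase VASA, fell from 346, 375 and 513 to 288 and 264 CPM (-0.58 ± 0.13, adjusted p = 0.00448), and Ccna1, the meiotic cyclin A1, by 0.45. Of 13 genes of the meiotic divisions 2 rose and 5 fell (53.8%), but 2 rose and 2 fell both with totals-only scaling and with the late to pachytene covariate. Plk1, a kinase of cell division, fell from 86.4, 109 and 113 to 51.1 and 61.5 CPM (-0.96 ± 0.14, adjusted p = 0.000156), and Cdc25a, a phosphatase that activates cyclin-dependent kinases and a target of ubiquitin ligases, from 91.8, 121 and 140 to 58.4 and 64.7 CPM (-1.01 ± 0.18, adjusted p = 0.000584). Rgcc and Cks2 rose by 0.68 and 0.81.

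The leptotene and zygotene list, of chromosome pairing, had 5 of 18 genes higher and 1 lower (33.3%, against 20.4% over all genes, median 0.44), with an overlapping sum. The counts were 2 and 0 with the covariate and 6 and 3 without WT4 and WT5. Tex12, of the synaptonemal complex, rose from 8.14, 11.8 and 24.9 to 29.9 and 28.0 CPM (1.12 ± 0.26, adjusted p = 0.00544), Prss50 by 1.22 and Sycp3 by 0.37, and Tex15 fell by 0.59. Spermatogonial genes summed to 155 and 144 CPM against 78.7 to 109 in WT, and 2 of 12 passed, both higher (16.7%, against 20.4% over all genes). Uchl1, a ubiquitin hydrolase abundant in spermatogonia, rose from 6.33, 11.8 and 17.6 to 27.6 and 27.1 CPM (1.13 ± 0.26, adjusted p = 0.0045), while Stra8, the switch to meiosis, was at the threshold (1.59 ± 0.56, adjusted p = 0.0496). With the late to pachytene ratio as covariate none of the 12 was called. That log2 ratio was 1.19 and 1.35 in Cul4a and 0.61 to 1.17 in WT, so it moves with the genotype. The 18 DUF622 genes, a rodent family, had 0 calls by edgeR and overlapping sums of 451 and 489 CPM against 340 to 494.

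Genes of Leydig cells, which make testosterone, had the largest ratio to the WT median among the sums of the 30 lists. The sum went from 94.1, 154 and 297 CPM in WT to 532 and 658 CPM in Cul4a, and 7 of 9 tested genes rose (77.8%, against 20.4% over all genes, median 1.61) with 0 lower. Cyp17a1, the enzyme that turns progestins into androgens, rose from 15.4, 29.6 and 67.9 to 132 and 170 CPM (2.00 ± 0.31, adjusted p = 0.000187). Insl3, a Leydig cell hormone, rose from 7.24, 26.0 and 39.8 to 72.4 and 133 CPM (2.00 ± 0.34), and Cyp11a1, which makes pregnenolone from cholesterol, from 3.62, 9.5 and 14.0 to 26.7 and 32.6 CPM (1.73 ± 0.30). Ptgds rose by 1.65. The count was 7 without WT4 and WT5 and 2 with the late to pachytene covariate.

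Sertoli cell genes, of the nurse cells of the tubule, summed to 598 and 710 CPM against 287 to 548, with 5 of 15 higher and 1 lower (40%, against 20.4% over all genes). Defb19 rose from 18.1, 61.8 and 88.2 to 131 and 155 CPM (1.28 ± 0.31, adjusted p = 0.00693), Wfdc10 by 1.62, Gstm6 by 1.38 and Defb36 by 1.19. Without WT4 and WT5, 9 were higher; with the covariate, 0. Macrophage genes summed to 147 and 156 CPM against 61.5 to 117, and 3 of 7 rose (42.9%, against 20.4% over all genes, or 1 gene with the covariate): Apoe, the lipid carrier, from 33.0, 44.6 and 63.3 to 95.5 and 104 CPM (0.97 ± 0.18, adjusted p = 0.00108), Fcgr3 by 0.87 and C1qb by 0.78. Most of the Cul4a macrophage sum was Apoe, and without it the sums overlapped those of WT. The study also lists Apoe in a component of Sertoli and Leydig cells. Mrc1, a defining macrophage receptor, was not called (-0.58 ± 0.48, adjusted p = 0.428). Of 3 tested T cell genes 1 rose (33.3%, against 20.4% over all genes, and 0 with the covariate). It was Cd3d, the T cell receptor subunit, from 3.62, 9.95 and 22.2 to 44.3 and 37.1 CPM (1.75 ± 0.36). Trbc2 and Ms4a4b of the same list did not pass. The T cell sum was 57.5 and 45.7 against 12.7 to 36.6 CPM, most of it Cd3d in Cul4a, and without Cd3d the groups overlapped. As deposited, Cd3d was at 42.2 CPM in the spermatid library and at most 8.98 in the Mlh3 libraries, so this sum is not a measure of T cells alone.

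Of the endothelial list 1 of 3 tested genes rose (33.3%, against 20.4% over all genes, and 0 with the covariate), Kdr, the receptor of vascular growth factor VEGF (1.56 ± 0.37, adjusted p = 0.00622). None of the 5 telocyte, 3 peritubular myoid and 5 red blood cell genes tested was called by edgeR, and their sums overlapped those of WT. The endothelial sum was 14.0 and 14.9 CPM against 5.43 to 13.6. WT5 had the highest telocyte sum, 113 CPM, and WT10 the highest red blood cell sum, 88.7 CPM. The part that these cells, or RNA released from them, play in single genes was not tested.

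**Figure D3:**
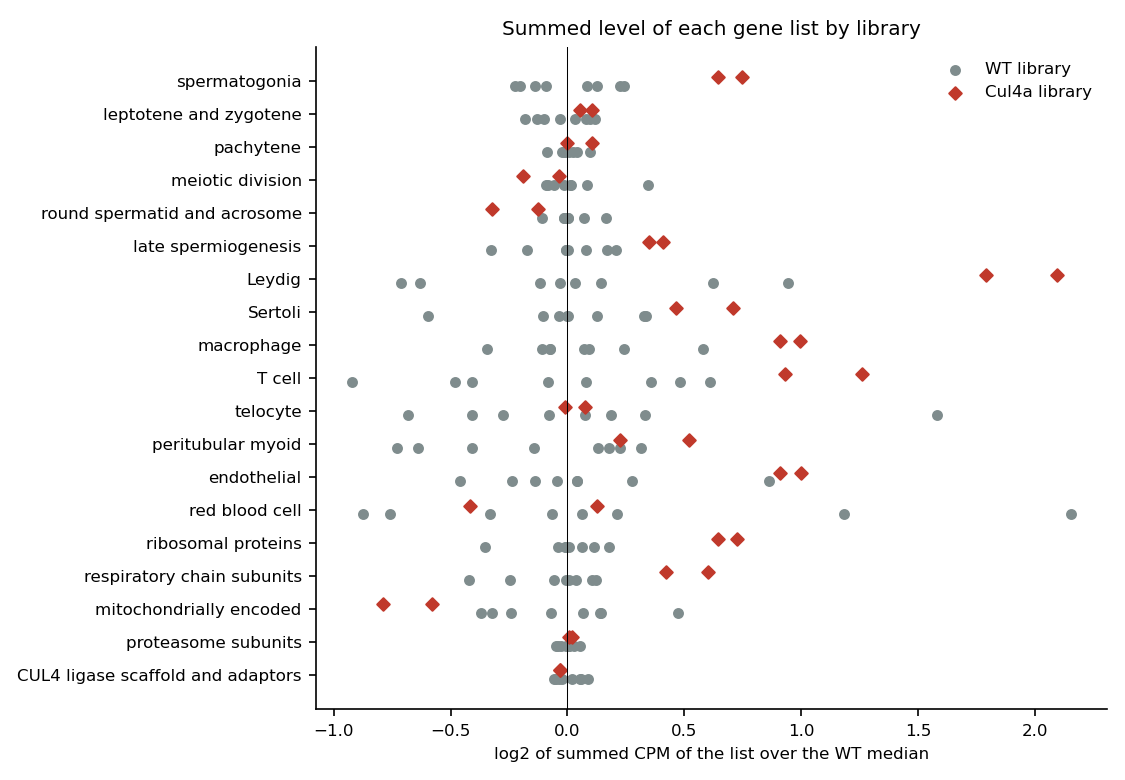
Summed CPM of 19 gene lists in each library, as log2 over the WT median of the list, with grey points for the 8 WT and red diamonds for the 2 Cul4a libraries. The Leydig sums of 532 and 658 CPM lie farthest above their WT median (154 CPM), with the ribosomal and respiratory chain sums above all WT libraries and the mitochondrially encoded and round spermatid sums below them.

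Of 90 tested ribosomal protein genes 59 rose and 2 fell (67.8% called, against 20.4% over all genes, median 0.65), and their sum was 23455 and 22181 CPM against 11126 to 16042 in WT. Rpl14 rose from 71.9, 89.1 and 104 to 200 and 156 CPM (0.94 ± 0.14, adjusted p = 0.000171), Rps10 by 0.98 and Rpl10a by 1.51. Rps3a3 was the exception within the pair, at 1.81 CPM in Cul4a_1 and 48.4 in Cul4a_2 against at most 0.905 in WT, so its 5.15 ± 0.69 rests on 1 library. Of 83 nuclear-encoded respiratory chain genes 41 rose and 0 fell (49.4%, median 0.54). Ndufs8, of complex I, rose from 27.1, 32.6 and 42.5 to 84.6 and 72.4 CPM (1.14 ± 0.15, adjusted p = 4.66e-05), Uqcrh, of complex III, by 0.85, and Atp5h and Atp5d, of the ATP synthase, by 0.72 and 0.68.

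Without WT4 and WT5 these counts were 72 ribosomal and 55 respiratory chain genes higher, and with the late to pachytene covariate 20 and 11. Over all genes these 2 fits called 1792 and 569 genes higher, against 1365 in the main fit. WT5 had the lowest ribosomal protein sum. The proteasome subunits, likewise a large complex, had 6 of 36 genes higher and 5 lower (30.6%, against 20.4% over all genes, median 0.06), or 8 and 0 with totals-only scaling and 11 and 5 without WT4 and WT5, with a sum of 5629 and 5669 CPM inside the WT range of 5413 to 5813. Psmb1, a subunit of the catalytic ring, rose from 112, 128 and 142 to 219 and 164 CPM (0.51 ± 0.12), Psma2 by 0.64, Psma7 by 0.58 and Psmb7 by 0.88. The 5 that fell, listed after their values were seen, were Psmc2 (-0.32), Psmc3 (-0.43), Psmd12 (-0.41), Psmd2 (-0.40) and Psmd4 (-0.36), all of the regulatory cap. With the late to pachytene covariate the list had 5 genes higher and 1 lower. Ubb, a polyubiquitin gene singled out after its values were seen, fell from 1133, 1247 and 1643 to 722 and 717 CPM (-0.93 ± 0.13, adjusted p = 6.63e-05).

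Of 12 tested histone cluster genes 7 rose and 1 fell (66.7%, against 20.4% over all genes, median 0.95), or 4 and 0 with the covariate. Beside Hist1h2al, Hist1h3a rose from 4.07, 7.69 and 9.5 to 23.5 and 14.5 CPM (1.24 ± 0.25, adjusted p = 0.00159), Hist2h2ac by 2.17 and Hist1h4h by 2.11. Their messages mostly lack poly(A) tails, on which the capture depends, and 18 of the 66 genes of the list had 0 thinned counts in all 10 libraries.

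Gene type and length moved with the direction of change. Of 386 tested processed pseudogenes 186 (48.2%) were higher and 13 (3.37%) lower, against 8.61% and 11.4% of the 11659 protein-coding genes. Processed pseudogenes summed to 8649 and 8281 CPM in Cul4a and to 4398, 4600 and 5263 in WT. As deposited, WT2 reached 15218 CPM of processed pseudogenes and WT1 and WT3 8611 and 6041, while both CNP libraries were at 3705 and 3688 and the Mlh3 libraries at 2581 to 4907. The libraries labelled spermatogonia, primary spermatocyte, secondary spermatocyte and spermatid were at 8513, 4024, 6399 and 6974 CPM. WT1, WT2 and the spermatogonia were dissociated with enzymes and the others mechanically.

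Among protein-coding genes, the raised had a median longest transcript of 1762.5 nt and the lowered of 3721 nt, against 3192 nt over all. When these genes were ordered by length and cut into 5 bins of equal size, in the bin of the shortest transcripts (144 to 1771 nt) 21.7% were higher and 4.94% lower, and in the bin of the longest (5157 to 123179 nt) 3.09% and 14.3%. The median log2 fold change of the 5 bins went from 0.23 to -0.14. The raised genes had a median GC content of 50.9% and the lowered of 47.3%. The part of library quality or capture in these shifts was not tested.

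**Figure D4:**
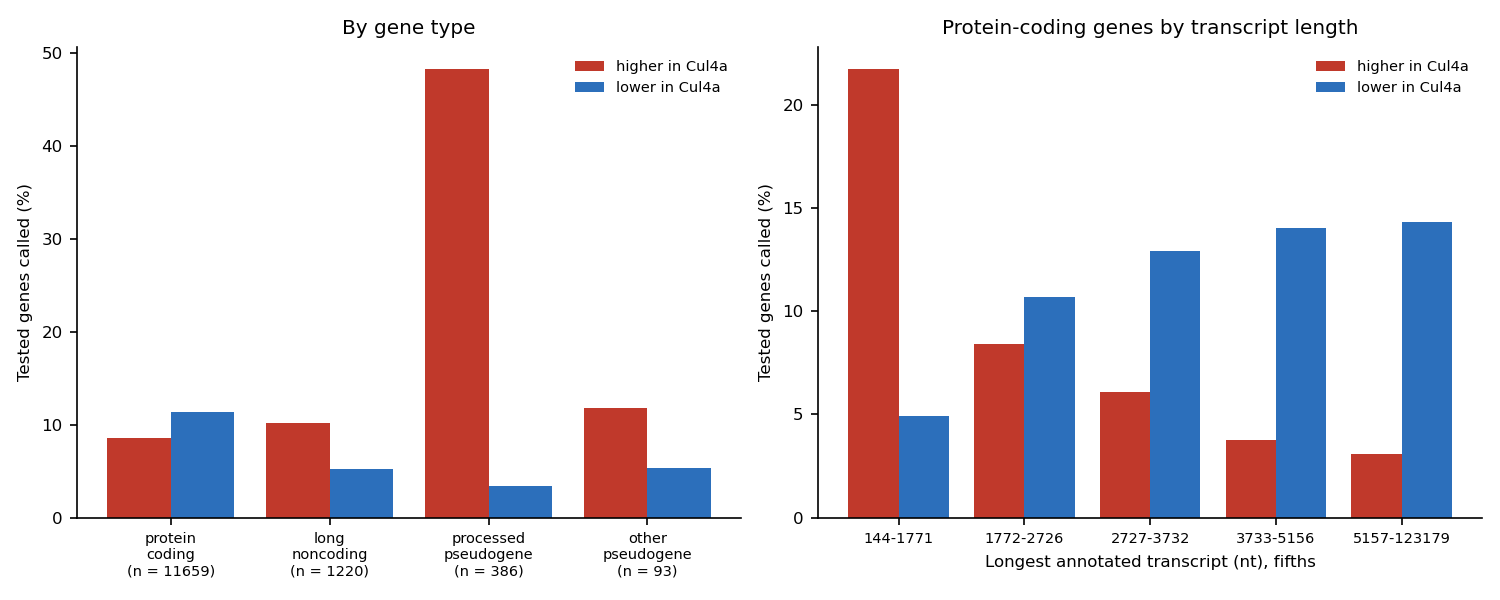
Share of tested genes called higher (red) or lower (blue) in Cul4a, by annotated gene type (left) and, for protein-coding genes, by 5 bins of the longest annotated transcript in nt (right). Processed pseudogenes reach 48.2% higher, and the share called higher falls from 21.7% in the shortest to 3.09% in the longest bin.

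Mitochondrially encoded RNA was lower as a sum, 7197 and 8333 CPM against 9633 to 17252 in WT, and most of the sum came from 1 gene. mt-Rnr2, the large mitochondrial ribosomal RNA, fell from 8210, 11135 and 15448 to 4743 and 6056 CPM (-1.11 ± 0.19, adjusted p = 0.000425). Of the members that passed in the other direction, mt-Nd1, of complex I, rose from 324, 338 and 456 to 773 and 767 CPM (1.01 ± 0.12, adjusted p = 1.3e-05), mt-Cytb, of complex III, by 0.88 and mt-Nd2 by 0.65. Altogether 5 of 14 tested genes rose and 1 fell (42.9%, against 20.4% over all genes). When every barcode was thinned to 500 UMIs and shallower barcodes were left out, mt-Rnr2 differed by 0.04 (adjusted p = 0.943), while at least 99.6% of Cul4a barcodes and 37.9% to 95.8% of WT barcodes reached 500 UMIs.

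Genes of the DNA damage response and crossover formation, a field of CRL4, had 2 of 16 higher and 1 lower (18.8%, near the 20.4% over all genes, median -0.02). The counts were 2 and 0 with the covariate, so the lowered call was lost, and 2 and 3 without WT4 and WT5. H2afx, whose phosphorylated protein marks DNA breaks, rose from 38.5, 46.4 and 57.5 to 81.0 and 58.8 CPM (0.52 ± 0.16, adjusted p = 0.024). Brca2, of recombination repair, fell from 63.8, 76 and 86.9 to 53.4 and 52.5 CPM (-0.60 ± 0.14, adjusted p = 0.00551). In both genes the groups did not overlap. Of 11 p53 target and apoptosis genes 2 rose and 1 fell (27.3%, against 20.4% over all genes). The median difference was 0.30, with 8 of the 11 above 0, while their sum, 226 and 243 CPM, lay below the 251 to 306 of WT. With totals-only scaling 2 rose and 0 fell, and with the covariate 1 and 1. Pmaip1, which encodes the death-promoting NOXA, rose from 0, 1.58 and 2.71 to 5.43 and 7.24 CPM (1.94 ± 0.45, adjusted p = 0.00458), Bax, the pore-forming effector, by 1.59 (adjusted p = 0.0436), and Mdm2, the ubiquitin ligase of p53, fell by 0.43. At a WT median of 176 CPM, Mdm2 made up most of the list's sum in WT. Bax passed in 13 of 26 and Mdm2 in 19 of 27 alternative fits. Cdkn1a, the p53 target p21 and a CRL4 substrate, was at 9.95 and 11.8 CPM against 4.52, 7.24 and 12.2 (0.40 ± 0.32, adjusted p = 0.415). None of 6 tested immediate early and heat shock genes was called by edgeR, and the sums of 451 and 435 CPM overlapped the WT range of 391 to 495.

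Of 17 genes that the study picked as markers of batch, 8 rose and 2 fell (58.8%, against 20.4% over all genes), or 0 and 2 with the late to pachytene covariate. Their sum of 9399 and 10763 CPM lay below the WT range of 11654 to 19474, with mt-Rnr2 its most abundant member. Fau and Rps12, of the ribosome, rose by 0.77 and 0.64. Batch and genotype cannot be told apart here. Since the study picked them on these samples, their direction is not independent evidence.

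The same genes were set against a transgenic line and against another mutant line listed as B6;129. CNP libraries came from C57BL/6 mice that carry the CNP eGFP BAC TRAP transgene. The study describes this line as infertile, with far fewer elongating spermatids than WT, so CNP is not a healthy-testis comparison. As deposited, Prm1 was at 6677 and 3215 CPM in CNP and at 12957 and 11942 in Cul4a. Spermatocytes of the Mlh3-/- mice arrest in meiosis. The study's methods write the Mlh3 line as B6.129 and the Cul4a line as B6;129, so a shared background is not certain. Of the Mlh3 mice used here 1 was 8 months 30 days old and the others 2 months 21 days to 2 months 23 days. One edgeR fit held the 4 strains (8 WT, 4 Mlh3, 2 Cul4a and 2 CNP libraries, 13008 genes). Its libraries were thinned to 775386 UMIs each, fewer than in the main fit. For Cul4a against WT it called 609 genes, so its counts are not to be read against those of the main fit. The fit of 4 strains called 498 genes (3.83%) against CNP, 382 of them higher (2.94%) and 116 lower (0.892%) in Cul4a. Against Mlh3 it called 6247 (48%), 3954 higher (30.4%) and 2293 lower (17.6%). These contrasts share the Cul4a libraries with the comparison above. Against CNP, 12 of the 12 leading raised genes were higher in Cul4a and 8 of the 12 leading lowered genes lower. 1700019B03Rik, Wwtr1, Fam217a and Tmc5 did not pass against CNP. Against Mlh3, 10 of the raised genes were higher, and of the lowered genes 6 were lower and 4 higher.

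Grtp1 stood, as deposited, at 0.722 and 0.924 CPM in Cul4a, at 200 and 241 in CNP and at 119 to 304 in the 4 mechanical HiSeq Mlh3 libraries. Rps13-ps1, at 267 and 236 CPM in Cul4a, was at 0 in CNP and at most 0.711 in these Mlh3 libraries. Hist1h2al was at most 1.29 CPM in CNP and in Mlh3, and Csmd1 was at 0 in CNP and at most 0.46 in Mlh3. Pfn1, at 142 and 119 CPM in Cul4a, was at 24.5 and 18.0 in CNP but at 83.3 to 94.3 in Mlh3. Wwtr1 was at 31.0 and 17.1 CPM in CNP and at 0.711 to 11.5 in Mlh3. The levels of Grtp1, Rps13-ps1, Csmd1 and Hist1h2al were therefore outside the range of both other strains. The study places the set that holds Csmd1 and Hist1h2al in clusters that it also lists for spermatids. Prm1 was at most 0.921 CPM in these Mlh3 libraries. For Csmd1 and Hist1h2al, strain and cell content therefore cannot be told apart in Mlh3.

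**Figure D5:**
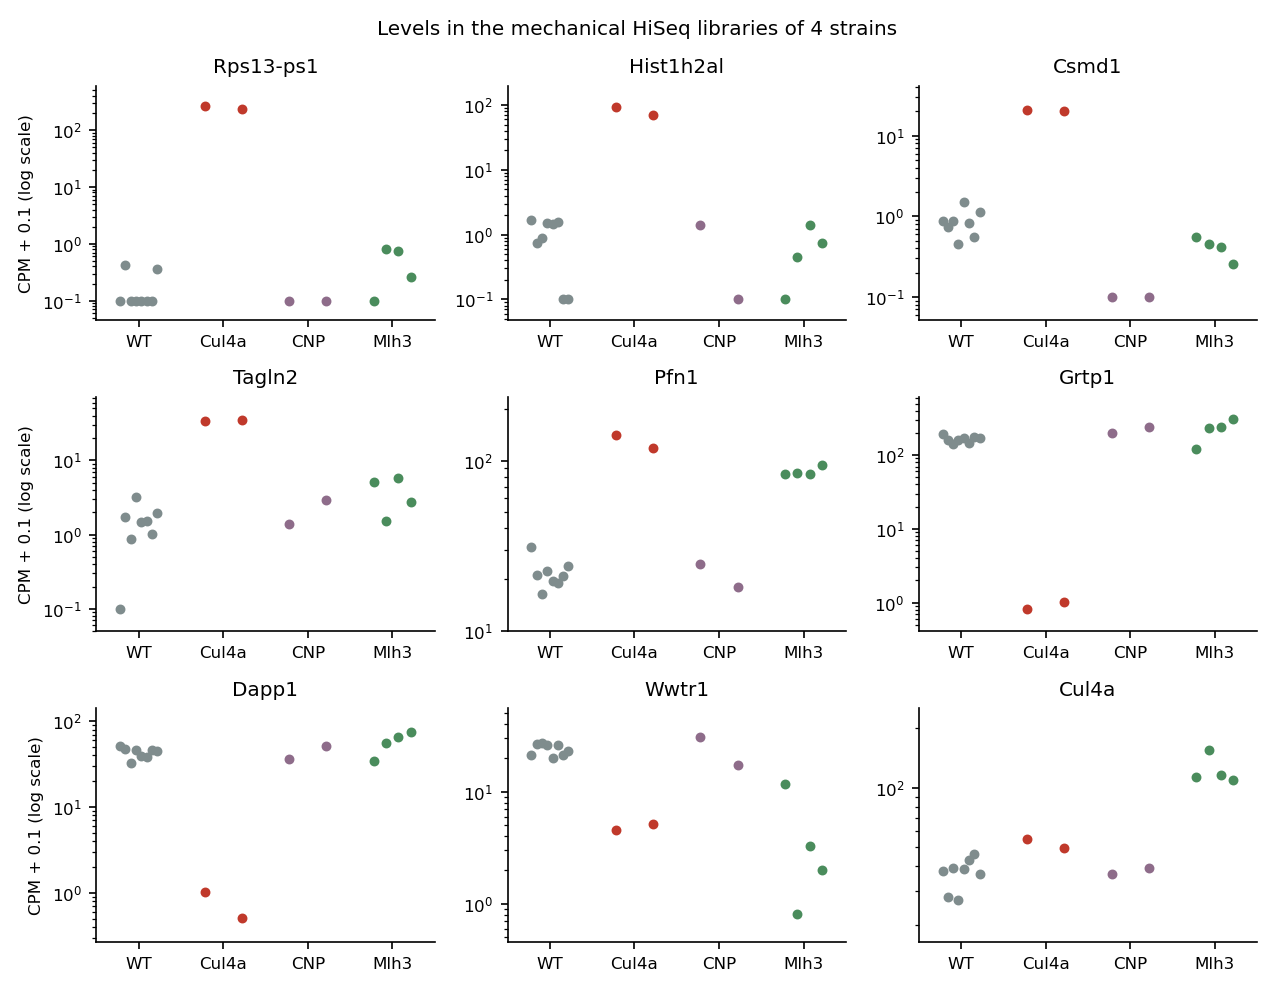
CPM as deposited with 0.1 added, on a log axis, of 9 genes in the mechanical HiSeq libraries of WT (8), Cul4a (2), CNP (2) and Mlh3 (4), 1 point per library. Grtp1 and Dapp1 are low and Rps13-ps1, Hist1h2al, Csmd1 and Tagln2 high in Cul4a alone, Pfn1 is high in Cul4a and Mlh3, and the Cul4a gene is highest in Mlh3.

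Whole-library measures were compared by exact permutation of the 10 libraries (two-sided), for which 2 against 8 allows no p below 0.0222, with Benjamini-Hochberg adjustment over 8 measures. None passed after adjustment. At equal total UMIs per library, but not equal UMIs per barcode, the Cul4a libraries detected 19435 and 19316 genes. The WT libraries detected 17774 to 18182 (exact p = 0.0222, adjusted 0.0593). Ribosomal protein genes took 2.35% and 2.22% of UMIs against 1.11% to 1.60%, with the same p. The median UMIs per barcode, 1703 and 1195 as deposited against 401 to 723, is one of the 8 but restates the depth for which the counts were thinned, and is given as a description. When each barcode was thinned to 500 UMIs the median number of genes was 419 and 416 against 417 to 424 (exact p = 0.156).

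X-linked genes took 1.18% and 1.27% of UMIs against 1.07% to 1.2% (exact p = 0.0444, adjusted 0.0889), with 49 of 471 genes higher and 21 lower (14.9% called, against 20.4% over all genes). Y-linked genes took 0.0152% and 0.0166% against 0.0133% to 0.0192% (exact p = 0.489). Mitochondrially encoded genes took 0.72% and 0.833% against 0.963% to 1.73% (exact p = 0.0667, adjusted 0.107), and the 100 most abundant genes 20.8% and 20.6% against 19.3% to 20.8% (exact p = 0.0889, adjusted 0.119).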

How the data were processed

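Drop-seq libraries of dissociated testes were deposited by the authors as UMI counts per gene and barcode. Per the labels and the study's methods, reads were demultiplexed with bcl2fastq and processed with the Drop-seq pipeline, with STAR 2.5.3a alignment to mm10 (GRCm38). The sequencing platform came from the study's sample list. Counts were summed over all barcodes and thinned to 2210512 UMIs per library, a depth at which intervals cover counting error only. With edgeR 4.0.16 (TMM factors, quasi-likelihood test, R 4.3.3), the 13739 genes with 30 or more thinned counts were tested. On simulated data of these 13739 genes, 68% of genes changed by a log2 fold change of 1 and 85% of those changed by 2 were recovered, and 0.037% of the others were called. Apart from the set changes, simulated libraries shared a mean per gene and the trended dispersion. No library, strain, age or batch shift was simulated, so 0.037% is not the false-call rate of the real comparison. DESeq2 1.42.0, other scalings, filters, seeds and library sets were alternatives.

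The named genes were the 12 with the smallest p in each direction (called, groups separate, mean of at least 20 CPM in the higher group), Cul4a and Cul4b, 6 genes the study picked, up to 4 genes of each list with the smallest p, and called genes within 5 Mb of Cul4a; some genes that meet this rule are not reported here. The libraries and lists were chosen with earlier results of these data known. Of the tested genes 13382 matched the annotation, and 10012 had a RefSeq start-site window.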

Additional observations from a re-analysis of the deposited data

Results flagged for a closer look

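Among the 8 WT libraries, 153 sets of values (library measures, list sums and named genes) were examined for a single library far from the others, and in 18 the gap exceeded Dixon's critical value of 0.526. Chance flags about 1 in 20 such groups. WT4 or WT5 was the library in 14 of the 18.

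WT5 stood low in ribosomal protein genes, with 1.11% of its UMIs and a sum of 11126 CPM, as well as in Fau (126 CPM). It stood high in the telocyte sum (113 CPM), the endothelial sum (13.6 CPM), Pld6 (49.8 CPM) and Rps13-ps1 (0.452 CPM, a single thinned UMI). WT4 stood high in the share of UMIs from Y-linked genes (0.0192%), the meiotic division sum (2445 CPM), Hyal6 (136 CPM), Tex12 (24.9 CPM), Ddx4 (513 CPM) and Cks2 (65.6 CPM), and low in the immediate early and heat shock sum (391 CPM).

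The remaining values lay in other libraries. WT10 was high in the red blood cell sum (88.7 CPM) and Sycp3 (306 CPM), WT6 in Kdr (3.17 CPM), and WT8 was low in Hist1h3a (4.07 CPM).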

How the results depend on the processing

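No paired analysis was possible because the groups compared share no replicate numbers. The 2796 genes called became 1388 with WT3 added (a shallower common depth), 1314 with barcodes thinned to 500 UMIs, 1344 with the late to pachytene ratio as covariate and 609 in one fit of 4 strains at their common depth; in none of the 27 alternatives was a called gene called in the opposite direction. The 10 calls within 5 Mb of Cul4a became 6, 6 and 5 in the last 3 of these. Leaving out 1 library gave 728 (without Cul4a_1) to 3078 (without WT4) calls, and 4 to 11 near Cul4a. The count as deposited was 3976 and that of DESeq2 2377. Of 4071 refits of 153 named genes, 3630 kept their direction and side of the threshold, 340 lost the call, 68 gained it and 33 changed sign. The called genes that changed sign were Stra8 (-0.052, covariate), Gstm6 (-0.23, WT3 added), and mt-Rnr2 (0.035) and Pcid2 (0.049) at 500 UMIs. The others were called in neither fit: with WT3 added Gm9758 (-0.0396), Acta2 (-0.20), Hsph1 (0.19) and Alas2 (0.23); at 500 UMIs Hsph1 (0.074), Dcn (0.54) and Gsn (0.63); with the covariate Tnp2 (-0.077), Col3a1 (-0.084), Cdkn1a (-0.12), Prm2 (-0.14) and Myl9 (-0.21); in the fit of 4 strains Senp8 (-0.16), Egfl7 (-0.41), Gm9758 (-0.47), Egr1 (-0.53), Cdkn1a (-0.73), Col3a1 (-0.88) and Chek1 (0.065); with a second seed Cdkn1a (-0.0044), Trbc2 (-0.031), Egfl7 (-0.081) and Vwf (-0.57); without barcodes over 10% mitochondrial Xpc (-0.029); and without WT4 and WT5 Dcn (0.014). Leaving out 1 library changed the sign of Egfl7 (-0.43) and Hsph1 (0.012) without Cul4a_1, Mrc1 (0.18) without Cul4a_2 and Dcn (0.069) without WT5. Egfl7 kept its sign without Cul4a_2 (0.64), as did Mrc1 without Cul4a_1 (-2.29). The cause was not tested, and Tnp2 and Prm2 belong to the list whose sum enters the covariate. Without 1 library, the Cul4a minus WT difference ranged from 1329.25 to 1448.25 for genes detected in the thinned total, -0.527 to -0.402 percentage points for the percent of UMIs from mitochondrially encoded genes, 0.798 to 0.925 for the percent of UMIs from ribosomal protein genes, 0.000334 to 0.00169 for the percent of UMIs from Y-linked genes and 628.625 to 1136.62 for median UMIs per barcode.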
